A study of Homo sapiens with 18 samples.

Results

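Integrins and laminins were followed here through 32 genes of 40266 gene symbols in the table, taken by symbol from a list of names: 21 integrin subunit genes, 8 of them for beta subunits, and 11 laminin chain genes, with 5 alpha, 4 beta and 2 gamma chains. Integrins are receptors that hold a cell to the matrix outside it, and each is a pair of an alpha and a beta subunit, which together decide the ligand that is bound. Laminins are the cross-shaped proteins of basement membranes, each built from an alpha, a beta and a gamma chain, and they are the main ligands of a group of integrins on epithelial cells. In pancreatic ductal adenocarcinoma (PDAC), a tumor of epithelial origin, the basement membrane is the layer a carcinoma cell sits on and has to cross.

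Expression was measured by RNA-seq in 18 libraries of human PDAC cell lines, as 6 groups with 3 libraries each. Panc1 cells came from a primary tumor and serve as the mesenchymal-like model, and Panc89 cells came from a lymph node metastasis and serve as the epithelial model. Each line was analysed as parental cells, which are a mixed population, and as Holoclone and Paraclone cells, which were grown from single cells and stand for a cancer stem cell type and a non-stem cell type of colony. All groups were untreated cultures in the same medium. The 3 libraries of a group came from 3 passages, and each Holoclone or Paraclone group is 1 clone, so the p-values below measure the spread between passages and not the spread between clones.

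Values are TPM (transcript abundances scaled to a common library total), which are corrected for transcript length and can be compared between genes. Of the 32 genes, 28 (18 integrins and 10 laminins) reached at least 1 TPM in at least 3 libraries and were tested together with all 16093 genes that did. Differences are log2 fold changes on the log2(TPM + 1) scale, given with their standard error (± SE), and adjusted p-values come from limma, corrected over all 16093 genes and called under 0.05. On this scale, changes of genes at about 1 TPM or less come out smaller than they are. ITGA4 (at most 0.0426 TPM), ITGA8 (at most 0.0564 TPM), ITGA9 (at most 0.0444 TPM) and LAMB4 (at most 0.132 TPM) stayed near 0 in every library and were not tested. Among the 28, ITGA11 passed only through Panc1 Paraclone cells, ITGB3, ITGA10 and LAMC3 only through Panc1 libraries, and ITGB6, ITGB7, LAMA1 and LAMA2 only through Panc89 libraries, so a difference in these genes was built into their selection. For LAMA1 these were parental and Holoclone libraries alone, so a difference from Panc89 Paraclone cells was built in as well.

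The libraries held 12932 to 14199 genes at 1 TPM or more, and their depth is unknown because TPM keep no total. The carcinoma markers KRT8, KRT18 and KRT19 were above 183 TPM in every library. All 5 carcinoma markers (with EPCAM and CDH1) reached 1 TPM in at least 1 library, and their summed level was 2593 to 5016 TPM in Panc1 and 2786 to 4090 TPM in Panc89 libraries. CDH1 (E-cadherin) was at 73.3 to 107 TPM in Panc89 and at most 3.51 TPM in Panc1, and VIM (vimentin) at 2021 to 5044 TPM in Panc1 and at most 0.456 TPM in Panc89, so these 2 genes matched the epithelial and mesenchymal-like labels. KRT8 ran the other way, at 638 to 2029 TPM in Panc1 and 378 to 843 TPM in Panc89, and in Holoclone cells 3 of the 5 carcinoma markers were higher and 2 lower in Panc89 than in Panc1. Panc89 Paraclone replicate 2 stood apart from its 2 partner libraries for several of the genes below, and for LAMA3, LAMB3, ITGB4, ITGB2 and ITGB7 the log2 fold changes that include it are also given without it.

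**Figure D1:**
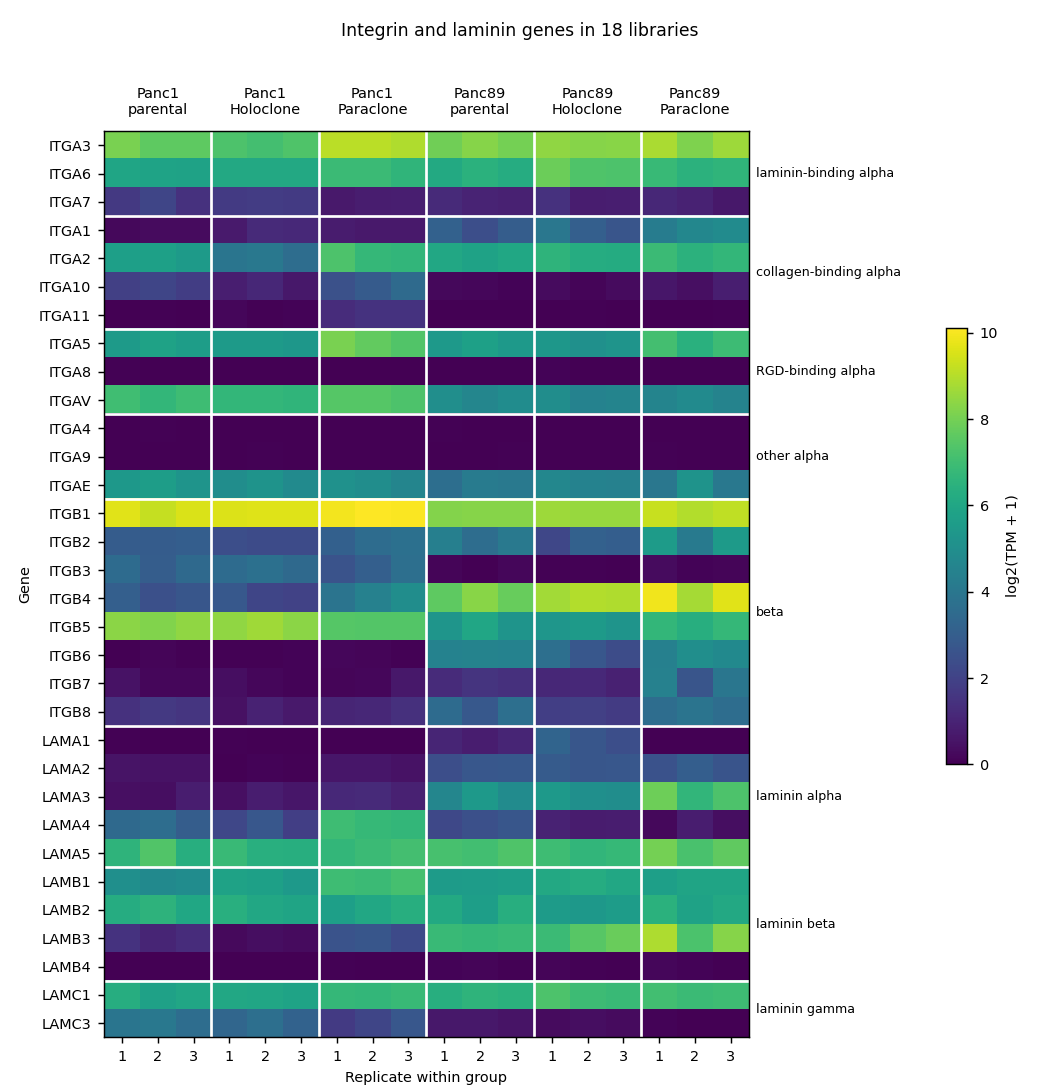
Heatmap of the 32 integrin and laminin genes (rows, grouped by role) in 18 libraries (columns, 3 replicates in each of 6 groups), with color giving log2(TPM + 1). ITGB1 is bright in every library, LAMA3, LAMB3 and ITGB4 are bright in Panc89 and dark in Panc1 libraries, LAMA4 is bright in Panc1 Paraclone libraries, and the rows of ITGA4, ITGA8, ITGA9 and LAMB4 are dark throughout.

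The first question was how far the integrin and laminin genes differed between the epithelial and the mesenchymal-like line. Panc89 cells carried the genes of the epithelial basement membrane and its receptor, LAMA3, LAMB3 and ITGB4, at levels 34.2 to 721 times those of the matching Panc1 cells, together with ITGB6, ITGB8, ITGA1 and LAMA2. Panc1 cells carried higher levels of ITGAV, ITGB1, ITGB3, ITGB5 and LAMC3. Of the 28 genes tested, 22 differed between parental Panc89 and parental Panc1 cells (13 higher and 9 lower in Panc89), where 66.0% of all genes tested were called (27.5% higher and 38.5% lower). Between the Holoclone cells of the 2 lines it was 23 (14 higher and 9 lower), with 65.8% of all genes called (29.3% higher and 36.4% lower), and between the Paraclone cells 21 (10 higher and 11 lower), with 60.7% called (30.2% higher and 30.4% lower). The shares of the 28 genes were 78.6%, 82.1% and 75.0%, not far above those of all genes. Their median log2 fold changes were 0.37, 0.45 and −0.077 in the 3 comparisons, beside −0.18, −0.11 and −0.0029 for all genes tested.

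In 12 of the 28 genes, all 9 libraries of one line were above all 9 libraries of the other, beside 33.1% of all genes tested (15.4% higher and 17.7% lower in Panc89). LAMA2, LAMA3, LAMB3, ITGA1, ITGB4, ITGB6, ITGB7 and ITGB8 were the 8 higher in Panc89, and LAMC3, ITGAV, ITGB3 and ITGB5 the 4 higher in Panc1. Of these, LAMC3, ITGB3, ITGB6, ITGB7 and LAMA2 had passed the filter only through the line where they were high.

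**Figure D2:**
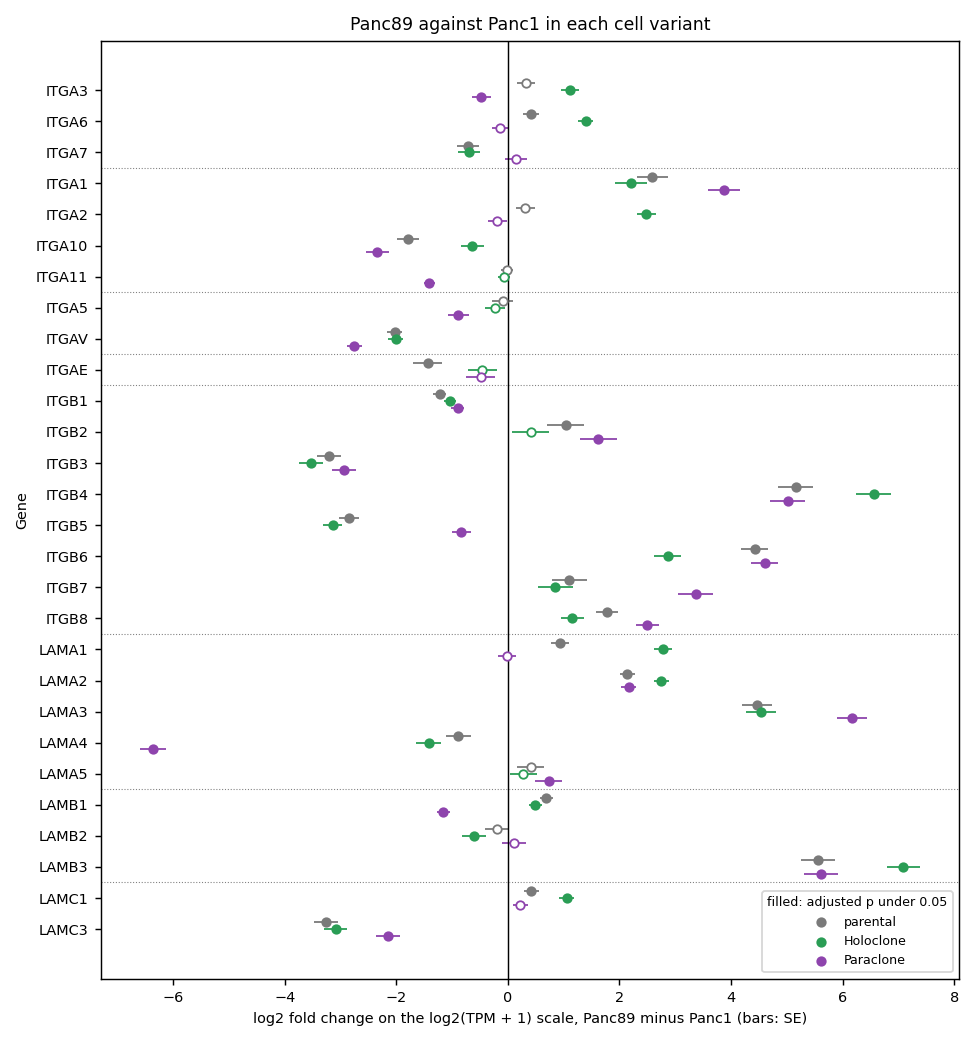
Log2 fold change of Panc89 against Panc1 cells (x axis, log2(TPM + 1) scale, Panc89 minus Panc1) for the 28 genes tested (y axis), in parental, Holoclone and Paraclone cells, with SE bars and filled points for an adjusted p under 0.05. LAMB3, LAMA3, ITGB4 and ITGB6 lie far to the right in all 3 cell variants, ITGB3, LAMC3 and ITGAV to the left, and LAMA4 at −6.37 in Paraclone cells.

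The second question was whether Holoclone and Paraclone cells of one line differed, and whether they did so alike in both lines. In both lines most integrin and laminin genes that differed were lower in Holoclone than in Paraclone cells. In Panc1, 18 of the 28 genes differed, 3 higher and 15 lower in Holoclone cells, where 37.3% of all genes were called (27.4% higher and 9.97% lower). The 15 include ITGA11, which had passed the filter only through Panc1 Paraclone cells. In Panc89, 13 of the 28 differed, 2 higher and 11 lower in Holoclone cells, where 35.7% of all genes were called (22.4% higher and 13.3% lower). The 2 higher include LAMA1, which had passed the filter only through parental and Holoclone cells of Panc89. The median log2 fold changes of the 28 genes were −0.51 in Panc1 and −0.37 in Panc89, while those of all genes were 0.19 and 0.09. With the libraries rescaled to a common median of ratios, the medians of all genes came to 0 and −0.0010, and the calls over all genes went from 73.3% to 47.7% higher in Panc1 and from 62.8% to 49.3% higher in Panc89, but the 28 genes still gave 3 higher and 16 lower in Panc1 and 2 higher and 12 lower in Panc89.

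The genes behind these counts were not the same in the 2 lines. The log2 fold change of Holoclone against Paraclone cells in Panc89 minus that in Panc1 passed the threshold for 21 of the 28 genes, 13 with a higher and 8 with a lower value in Panc89, beside 35.1% of all genes (14.8% higher and 20.4% lower). ITGA11, selected through Panc1 Paraclone cells alone, and LAMA1, selected through parental and Holoclone cells of Panc89 alone, are among the 13. LAMA4, ITGA2, ITGB4, LAMB3 and ITGA10 were much lower in Holoclone than in Paraclone cells of Panc1. In Panc89, ITGB7, LAMA3, ITGB8 and ITGB6 were lower and LAMA1 was higher in Holoclone than in Paraclone cells. Such a contrast does not show which clone moved from the parental level, and values against parental cells are given further below. ITGA5, ITGB1 and ITGB2 were lower in Holoclone than in Paraclone cells of both lines. For each, the test of a difference between the lines missed the threshold. For ITGA5 and ITGB2 this difference passed it under some alternatives.

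**Figure D3:**
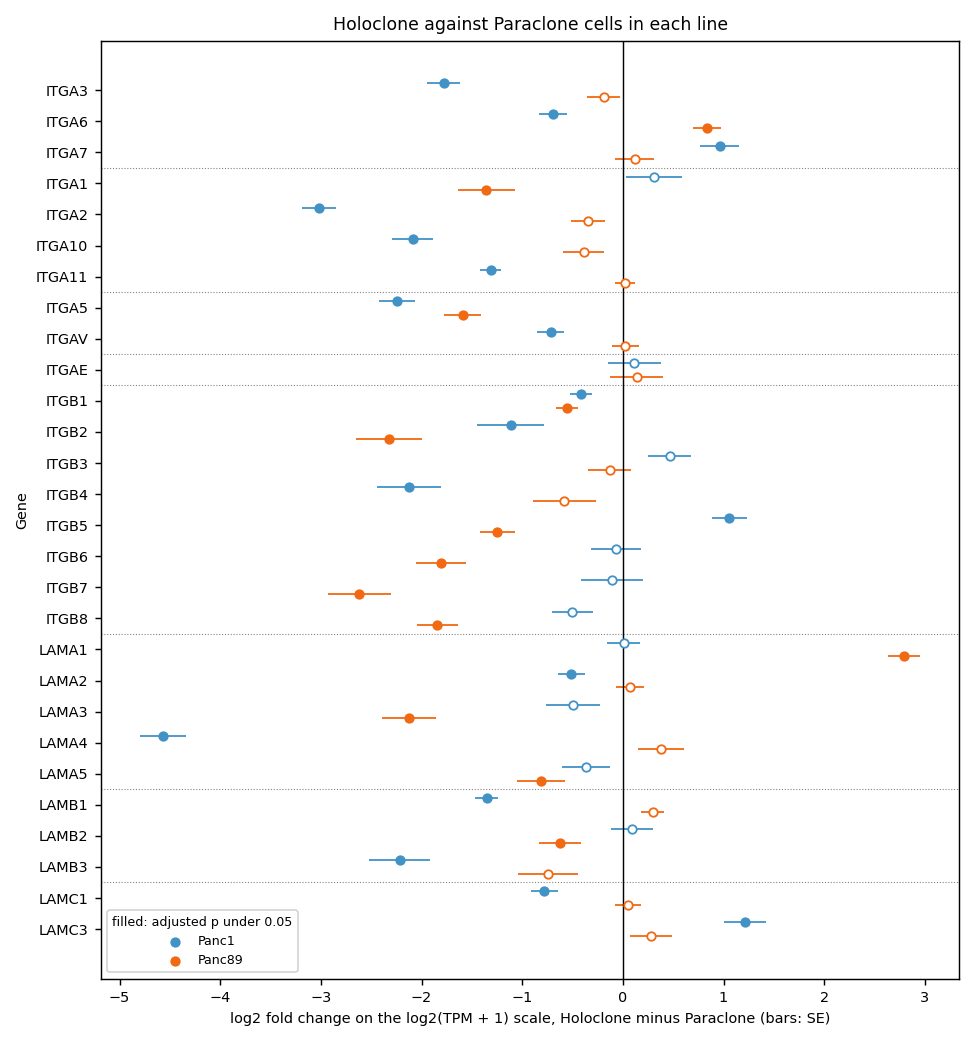
Log2 fold change of Holoclone against Paraclone cells (x axis, log2(TPM + 1) scale, Holoclone minus Paraclone) for the 28 genes tested (y axis) in Panc1 and Panc89, with SE bars and filled points for an adjusted p under 0.05. Most filled points lie left of 0. The lowest value is LAMA4 in Panc1 (−4.57), the highest is LAMA1 in Panc89 (2.80), and ITGA6 and ITGB5 carry filled points on opposite sides of 0.

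Laminin alpha chains give a laminin its binding site for integrins. LAMA3 is the alpha chain of the laminin that anchors epithelial cells through hemidesmosomes, the plaques that tie keratin filaments to the basement membrane, and LAMB3 is its beta chain. As LAMA3 and LAMB3 were higher together in every Panc89 library, their promoters are shown, with LAMA4 and ITGB6 beside them as 2 genes with an entry that differed strongly by clone or by line. The sequences are the 250 bases before the start in RefSeq on GRCh38.p14, written 5′ to 3′ on the strand of the gene, at chr18:23872770-23873019 (+ strand) for LAMA3, chr1:209652426-209652675 (− strand) for LAMB3, chr6:112254568-112254817 (− strand) for LAMA4 and chr2:160200273-160200522 (− strand) for ITGB6. Capitals mark TGANTCA (the AP-1 motif) and CACCTG (an E-box), each searched on both strands, so that CACCTG also appears as CAGGTG.
LAMA3: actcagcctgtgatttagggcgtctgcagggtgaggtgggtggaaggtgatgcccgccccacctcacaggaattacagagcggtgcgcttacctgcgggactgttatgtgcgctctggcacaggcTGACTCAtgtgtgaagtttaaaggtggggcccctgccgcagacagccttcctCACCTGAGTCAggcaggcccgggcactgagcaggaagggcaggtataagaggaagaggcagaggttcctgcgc
LAMB3: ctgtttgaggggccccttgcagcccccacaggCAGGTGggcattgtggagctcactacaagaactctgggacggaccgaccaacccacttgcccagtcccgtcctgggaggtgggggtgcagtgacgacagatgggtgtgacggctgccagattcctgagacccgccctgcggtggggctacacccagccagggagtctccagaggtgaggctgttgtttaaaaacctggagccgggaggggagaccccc
LAMA4: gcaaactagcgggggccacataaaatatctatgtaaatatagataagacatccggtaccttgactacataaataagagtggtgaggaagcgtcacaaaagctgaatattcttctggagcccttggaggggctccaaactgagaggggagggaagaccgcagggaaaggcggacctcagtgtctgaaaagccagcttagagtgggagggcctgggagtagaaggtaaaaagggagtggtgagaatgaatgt
ITGB6: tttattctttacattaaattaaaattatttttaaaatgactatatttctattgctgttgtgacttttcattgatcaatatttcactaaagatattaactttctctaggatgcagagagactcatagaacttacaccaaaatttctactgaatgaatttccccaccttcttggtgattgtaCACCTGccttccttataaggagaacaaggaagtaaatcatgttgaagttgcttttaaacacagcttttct
The LAMA3 window held TGACTCA with its first base 125 bases before the start and TGAGTCA 69 bases before it, the latter overlapping a CACCTG that begins 73 bases before the start. This RefSeq start lies 183567 bases inside the gene from the start that GENCODE gives as its canonical one. LAMB3 held CAGGTG 218 bases and ITGB6 CACCTG 70 bases before the start, and LAMA4 held neither motif. Of 24 integrin and laminin genes with an entry, 1 held TGANTCA and 7 held CACCTG, beside 6.57% and 17.5% of 35114 promoters. A match is a string of letters and not a measured binding site.

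LAMA3 (chr18:23689453-23956222, + strand, GENCODE 44) was at 0.324, 0.297 and 0.737 TPM in parental Panc1, 0.344, 0.765 and 0.525 TPM in Panc1 Holoclone and 1.27, 1.34 and 0.908 TPM in Panc1 Paraclone cells. Panc89 cells had 24.3, 42.6 and 28.3 TPM in the parental, 43.6, 31.7 and 30.1 TPM in the Holoclone and 235, 100.2 and 157 TPM in the Paraclone libraries. No Panc1 library came near a Panc89 library, and within Panc89 all Paraclone libraries were above all parental and Holoclone libraries. The log2 fold change of Panc89 against Panc1 was 4.47 ± 0.27 (adjusted p = 6.99e-10) in parental, 4.54 ± 0.27 (adjusted p = 5.45e-10) in Holoclone and 6.17 ± 0.27 (adjusted p = 1.44e-11) in Paraclone cells. Holoclone cells had lower expression of LAMA3 than Paraclone cells in Panc89 (−2.13 ± 0.27, adjusted p = 1.77e-05), with a value of −0.49 ± 0.27 (adjusted p = 0.168) in Panc1, which passed the threshold at a pseudocount of 0.1 (−1.01, adjusted p = 0.0342) and in a fit of the 2 groups alone (adjusted p = 0.0338). Without Panc89 Paraclone replicate 2 the clone change in Panc89 was −2.44, the change between the lines in Paraclone cells was 6.48 and the difference of the clone changes was −1.94. With all libraries this difference was −1.63 ± 0.38 (adjusted p = 0.00345), and it missed the threshold with a pseudocount of 0.1 (−1.14, adjusted p = 0.0928).

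LAMB3 (chr1:209614870-209652425, − strand) was at 1.82, 1.07 and 1.41 TPM in parental Panc1, 0.190, 0.301 and 0.230 TPM in Panc1 Holoclone and 5.03, 5.50 and 3.88 TPM in Panc1 Paraclone cells. The Panc89 values were 115, 107 and 115 TPM in parental, 119, 176 and 225 TPM in Holoclone and 462, 153 and 313 TPM in Paraclone cells. Within Panc1 the 3 groups did not overlap, with Paraclone cells highest and Holoclone cells lowest, whereas in Panc89 the lowest Paraclone library, replicate 2, lay among the Holoclone libraries. Panc89 differed from Panc1 with a log2 fold change of 5.55 ± 0.30 (adjusted p = 1.99e-10) in parental, 7.09 ± 0.30 (adjusted p = 1.01e-11) in Holoclone and 5.61 ± 0.30 (adjusted p = 1.79e-10) in Paraclone cells. In Panc1, Holoclone cells were lower than Paraclone cells (−2.22 ± 0.30, adjusted p = 3.51e-05), with −3.85 at a pseudocount of 0.1. In Panc89 the value was −0.74 ± 0.30 (adjusted p = 0.0664) with all libraries, and −1.18 (adjusted p = 0.000941) without Paraclone replicate 2, and it also passed the threshold without Holoclone replicate 3 (−0.95, adjusted p = 0.0375). The change differed between the lines by 1.47 ± 0.42 (adjusted p = 0.0136), and without Paraclone replicate 2 by 1.04 (adjusted p = 0.0161), when the value between the lines in Paraclone cells was 6.05.

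LAMA4, a chain known from basement membranes of blood vessels and from mesenchymal cells, had the largest clone change of the 28 genes on the log2(TPM + 1) scale, whereas at a pseudocount of 0.1 the change of LAMA1 in Panc89 (5.87) was larger than that of LAMA4 in Panc1 (−4.87). LAMA4 (chr6:112107931-112254939, − strand) was at 10.04, 11.2 and 6.95 TPM in parental Panc1, 3.42, 5.70 and 2.66 TPM in Panc1 Holoclone and 126, 110.1 and 102 TPM in Panc1 Paraclone cells. Parental Panc89 cells had 3.58, 4.53 and 5.61 TPM, Panc89 Holoclone cells 0.933, 0.688 and 0.742 TPM and Panc89 Paraclone cells 0.162, 0.738 and 0.281 TPM. The Panc1 Paraclone libraries stood far above every other library, while among the Panc89 groups the parental cells were highest. Panc1 Holoclone cells had a mean TPM 28.7 times lower than Panc1 Paraclone cells (−4.57 ± 0.23, adjusted p = 5.43e-10), and the value in Panc89 was 0.38 ± 0.23 (adjusted p = 0.219), which passed the threshold at a pseudocount of 0.1 (1.01, adjusted p = 0.0391). The difference of the changes was 4.95 ± 0.32 (adjusted p = 2.02e-08). Between the Paraclone cells of the 2 lines the mean TPM differed 286-fold (−6.37 ± 0.23, adjusted p = 1.37e-12), against −0.89 ± 0.23 (adjusted p = 0.00278) in parental and −1.42 ± 0.23 (adjusted p = 4.89e-05) in Holoclone cells.

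LAMA1 is the alpha chain of laminins of the early embryo and of some adult epithelia. It was at 0 to 0.0283 TPM over the 9 Panc1 libraries. In Panc89 it was at 1.06, 0.766 and 1.05 TPM in parental, 8.54, 5.56 and 4.41 TPM in Holoclone and 0.00378, 0.00238 and 0.00311 TPM in Paraclone cells. The 3 Panc89 groups did not overlap, and the Panc89 Paraclone libraries were as low as the Panc1 libraries. LAMA1 was thus higher in Holoclone than in Paraclone cells of Panc89 (2.80 ± 0.16, adjusted p = 3.44e-09), which with a pseudocount of 0.1 was 5.87, and the difference of the changes between the lines was 2.79 ± 0.23 (adjusted p = 1.97e-07). As LAMA1 passed the filter only through parental and Holoclone cells of Panc89, a difference between the Panc89 clones was built into its selection. Between the lines the log2 fold change was 0.93 ± 0.16 (adjusted p = 8.68e-05) in parental and 2.78 ± 0.16 (adjusted p = 3.79e-10) in Holoclone cells.

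LAMA2, the alpha chain known from muscle and nerve, was at 0.451, 0.405 and 0.427 TPM in parental Panc1, 0.0273, 0.0574 and 0.0346 TPM in Panc1 Holoclone and 0.508, 0.539 and 0.399 TPM in Panc1 Paraclone cells. Panc89 cells had 4.43, 5.71 and 5.82 TPM in the parental, 6.58, 5.60 and 5.80 TPM in the Holoclone and 4.83, 7.07 and 5.27 TPM in the Paraclone libraries. All Panc89 libraries were above all Panc1 libraries, and the 3 Panc89 groups overlapped. The log2 fold change between the lines was 2.14 ± 0.14 (adjusted p = 1.52e-09) in parental, 2.75 ± 0.14 (adjusted p = 7.03e-11) in Holoclone and 2.17 ± 0.14 (adjusted p = 1.33e-09) in Paraclone cells. Panc1 Holoclone cells were lower than Panc1 Paraclone cells (−0.51 ± 0.14, adjusted p = 0.00802). The clone change differed between the lines by 0.58 ± 0.19 (adjusted p = 0.0294), a call lost under 9 of 18 alternatives, with values of 0.48 to 2.14 and adjusted p up to 0.0758, the highest without Panc89 Paraclone replicate 1. LAMA5, the most widespread alpha chain of adult epithelia, was the most abundant laminin alpha transcript in all 6 groups, with means of 114, 92.3 and 118 TPM in parental, Holoclone and Paraclone Panc1 cells and 144, 111 and 201 TPM in those of Panc89. It was lower in Panc89 Holoclone than Paraclone cells (−0.81 ± 0.24, adjusted p = 0.0146), a call that was lost without Panc89 Paraclone replicate 1 (−0.62, adjusted p = 0.0798), without Panc89 Holoclone replicate 2 (0.0559) and in a fit of the 2 groups alone (0.0505).

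Among the other laminin chains, LAMB1 and LAMC1, the beta and gamma chains shared by many laminins, were both lower in Panc1 Holoclone than Paraclone cells. LAMB1 had means of 29.3 ± 2.52, 49.8 ± 7.04 and 128 ± 10.9 TPM (SD, n = 3) in parental, Holoclone and Paraclone Panc1 cells and 46.4 to 75.3 TPM over the Panc89 libraries, with a log2 fold change of −1.35 ± 0.11 (adjusted p = 2.44e-07) in Panc1 and 0.29 ± 0.11 (adjusted p = 0.0551) in Panc89. LAMC1 was at 54.1 to 155 TPM over all libraries and changed by −0.78 ± 0.13 (adjusted p = 0.000287) in Panc1. LAMB2, a beta chain of kidney and neuromuscular basement membranes, was at 41.3 to 91.1 TPM. It was lower in Panc89 Holoclone than Paraclone cells (−0.63 ± 0.21, adjusted p = 0.0293), a call lost under 6 of 12 alternatives, with values of −0.46 to −0.77.

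LAMC3, a gamma chain found in few laminins, was a Panc1 transcript. It was at 14.1, 15.7 and 11.1 TPM in parental, 9.02, 12.0 and 8.12 TPM in Holoclone and 2.30, 3.30 and 5.68 TPM in Paraclone cells of Panc1. The Panc89 values were 0.560, 0.563 and 0.437 TPM in parental, 0.228, 0.293 and 0.219 TPM in Holoclone and 0.0674, 0.0136 and 0 TPM in Paraclone cells. In Panc1 all Paraclone libraries were below all parental and Holoclone libraries, and in Panc89 the same was true at a far lower level. LAMC3 was higher in Holoclone than Paraclone cells of Panc1 (1.22 ± 0.21, adjusted p = 0.000308). In Panc89 the value was 0.28 ± 0.21 (adjusted p = 0.331), which passed the threshold at a pseudocount of 0.1 (1.48, adjusted p = 0.00131) and in a fit of the 2 groups alone (adjusted p = 0.0185). Between the lines the log2 fold change was −3.26 ± 0.21 (adjusted p = 1.64e-09) in parental, −3.09 ± 0.21 (adjusted p = 3.03e-09) in Holoclone and −2.15 ± 0.21 (adjusted p = 2.45e-07) in Paraclone cells. The difference of the clone change between lines was −0.94 ± 0.30 (adjusted p = 0.0226), but at a pseudocount of 0.1 it was 0.055 (adjusted p = 0.940), and it missed the threshold under either rescaling, without Panc1 Holoclone replicate 2 and without Panc1 Paraclone replicate 1 or 2 (adjusted p 0.0514 to 0.0590).

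The make-up of the laminin transcripts can be read from the share of each chain. LAMA5 made up 91.3% ± 1.83 (SD, n = 3) of the summed laminin alpha TPM in parental Panc1 and 95.2% ± 2.21 in Panc1 Holoclone cells. In Panc1 Paraclone cells LAMA5 (50.8% ± 5.98) and LAMA4 (48.5% ± 5.88) shared it. In Panc89 the second chain was LAMA3, at 17.0% ± 5.06 in parental, 21.9% ± 1.93 in Holoclone and 43.3% ± 3.95 in Paraclone cells. Among the beta chains, LAMB3 took 49.6% ± 2.74, 59.2% ± 7.68 and 68.3% ± 10.2 in parental, Holoclone and Paraclone Panc89 cells and at most 2.47% on average in a Panc1 group. In Panc1, LAMB1 had 27.5% ± 4.44 in parental and 64.7% ± 3.58 in Paraclone cells, where LAMB2 had 32.8% ± 3.89. These shares are descriptions and were not tested.

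**Figure D4:**
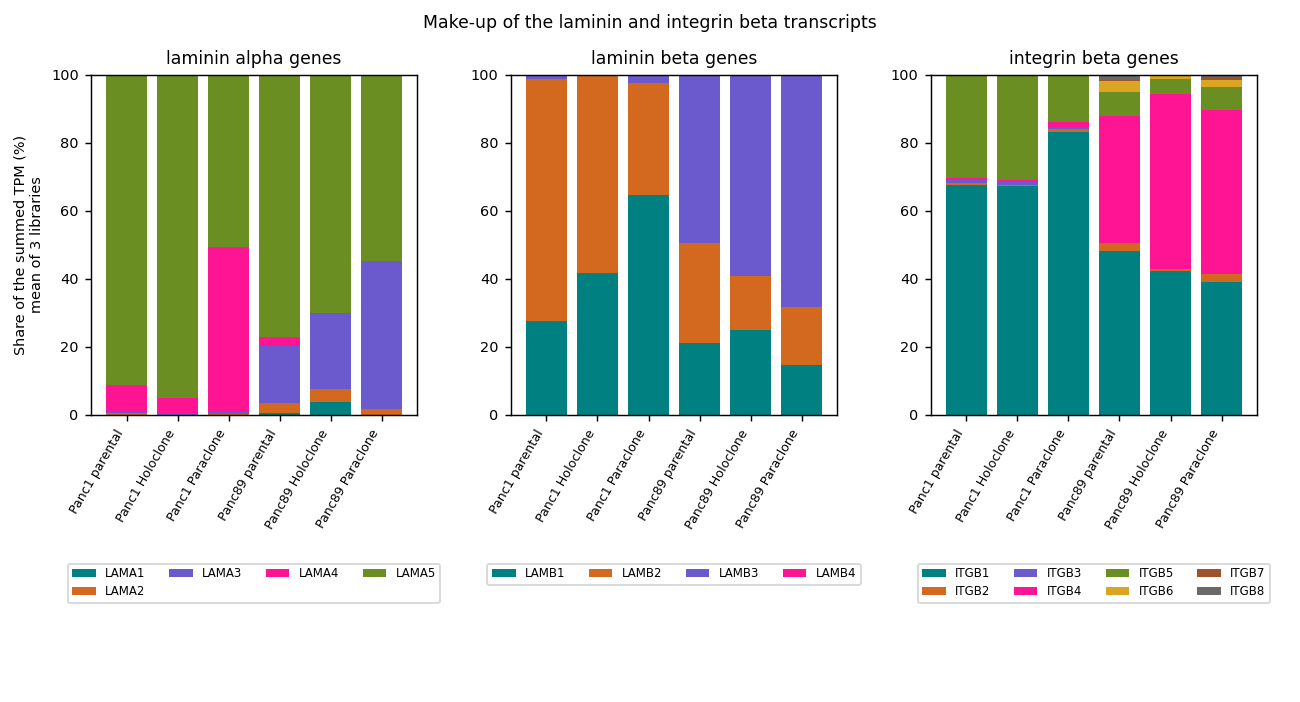
Stacked bars of the mean share (%) of each gene in the summed TPM of the laminin alpha, laminin beta and integrin beta genes in the 6 groups (3 libraries each). LAMA4 fills 48.5% of the laminin alpha bar in Panc1 Paraclone cells and LAMA3 43.3% in Panc89 Paraclone cells, LAMB3 fills 49.6 to 68.3% of the beta bars of Panc89, and ITGB4 fills 37.4 to 51.4% of the integrin beta bars of Panc89.

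The receptors for laminins among the integrins pair ITGA3, ITGA6 or ITGA7 with ITGB1, or ITGA6 with ITGB4. ITGB4 (chr17:75721328-75757818, + strand), whose long tail binds the hemidesmosome plaque, was at 7.28, 4.57 and 5.46 TPM in parental Panc1, 5.94, 3.30 and 3.00 TPM in Panc1 Holoclone and 13.8, 20.7 and 29.9 TPM in Panc1 Paraclone cells. Parental Panc89 cells had 196, 320.0 and 214 TPM, Panc89 Holoclone cells 417, 494 and 484 TPM and Panc89 Paraclone cells 954, 435 and 809.6 TPM. The highest Panc1 library was far under the lowest Panc89 library, in Panc1 the Paraclone libraries were above the rest, and in Panc89 Paraclone replicate 2 lay among the Holoclone libraries. Panc89 differed from Panc1 with a log2 fold change of 5.16 ± 0.31 (adjusted p = 8.07e-10) in parental, 6.56 ± 0.31 (adjusted p = 4.23e-11) in Holoclone and 5.02 ± 0.31 (adjusted p = 1.15e-09) in Paraclone cells. Holoclone cells were lower than Paraclone cells in Panc1 (−2.12 ± 0.31, adjusted p = 7.62e-05). In Panc89 the value was −0.58 ± 0.31 (adjusted p = 0.166), and without Paraclone replicate 2 it was −0.92 (adjusted p = 0.0234). The change differed between the lines by 1.54 ± 0.44 (adjusted p = 0.0133), and without that replicate by 1.20 (adjusted p = 0.0288), when the value between the lines in Paraclone cells was 5.36.

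ITGA3 was the most abundant alpha subunit in every group, at 136 to 540 TPM, and ITGA6 was at 55.1 to 230 TPM. ITGA3 had means of 219 ± 45.4, 151 ± 12.5 and 519 ± 33.7 TPM (SD, n = 3) in parental, Holoclone and Paraclone Panc1 cells. The corresponding Panc89 means were 272 ± 36.6, 326 ± 16.1 and 379.6 ± 87.4 TPM. Holoclone cells were lower than Paraclone cells in Panc1 (−1.78 ± 0.17, adjusted p = 7.35e-07), and the value in Panc89 was −0.19 ± 0.17 (adjusted p = 0.408). ITGA3 was lower in Panc89 than in Panc1 Paraclone cells (−0.48 ± 0.17, adjusted p = 0.0209), a call lost without Panc89 Paraclone replicate 2 (−0.28, adjusted p = 0.118) and under 4 other alternatives. ITGA6 moved in opposite directions in the 2 lines. Its means were 67.6 ± 0.978 TPM in Holoclone and 110.5 ± 12.5 TPM in Paraclone cells of Panc1 (−0.70 ± 0.14, adjusted p = 0.00115), against 182 ± 41.4 TPM in Holoclone and 100.1 ± 12.0 TPM in Paraclone cells of Panc89 (0.84 ± 0.14, adjusted p = 0.000261), and the difference was 1.53 ± 0.20 (adjusted p = 2.70e-05). ITGA7, known from muscle, was at most 3.38 TPM and was higher in Holoclone than Paraclone cells of Panc1 (0.96 ± 0.20, adjusted p = 0.00115). This change differed between the lines by −0.84 ± 0.28 (adjusted p = 0.0268), a call lost without Panc1 Paraclone replicate 1, Panc89 Paraclone replicate 1 or Panc89 Holoclone replicate 2 or 3 (adjusted p up to 0.0731).

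ITGB1, the beta subunit that pairs with most of the alpha subunits described here, was the most abundant integrin transcript in Panc1, at 603 to 1110 TPM, and was at 300 to 621 TPM in Panc89. It was lower in Panc89 than in Panc1 in all 3 cell variants (−1.23, −1.04 and −0.90 in parental, Holoclone and Paraclone cells), and lower in Holoclone than in Paraclone cells of both lines (−0.42 ± 0.11, adjusted p = 0.00664 in Panc1, −0.55 ± 0.11, adjusted p = 0.000936 in Panc89). Its processed copy ITGB1P1 was listed at 5.46 to 22.3% of the ITGB1 value, so how the reads divided between them is uncertain. Among the beta subunits, ITGB1 took 67.5% ± 2.21, 67.3% ± 2.66 and 83.0% ± 0.962 of the summed TPM in parental, Holoclone and Paraclone Panc1 cells. In Panc89 it shared the first place with ITGB4, at 48.1% ± 4.86 against 37.4% ± 5.44 in parental, 42.2% ± 2.70 against 51.4% ± 2.97 in Holoclone and 38.9% ± 6.22 against 48.4% ± 7.18 in Paraclone cells.

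The collagen receptors pair ITGA1, ITGA2, ITGA10 or ITGA11 with ITGB1, and they divided by line and clone. ITGA2, a receptor for fibrillar collagen on epithelial cells and platelets, was at 51.2, 53.3 and 45.1 TPM in parental Panc1, 14.2, 15.7 and 11.4 TPM in Panc1 Holoclone and 154, 106 and 100.0 TPM in Panc1 Paraclone cells. In Panc89 it was at 66.0, 56.1 and 64.6 TPM in parental, 93.8, 75.1 and 74.8 TPM in Holoclone and 118, 90.3 and 102 TPM in Paraclone cells. Panc1 Holoclone libraries stood below all others, and in Panc89 the Holoclone and Paraclone libraries overlapped. The Holoclone against Paraclone change was −3.02 ± 0.17 (adjusted p = 1.81e-09) in Panc1 and −0.35 ± 0.17 (adjusted p = 0.121) in Panc89 (95% interval −0.70 to 0.0077), and the difference was 2.67 ± 0.24 (adjusted p = 5.19e-07). Between the lines the Holoclone cells differed (2.48 ± 0.17, adjusted p = 2.66e-09), and the parental cells did so only when rescaled (0.47 by upper quartile, adjusted p = 0.00985, against 0.31, adjusted p = 0.110) or in a fit of the 2 groups alone.

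ITGA1, whose gene lies 30.1 kb from ITGA2 on the same strand of chromosome 5, followed another course. It was at 0.149, 0.214 and 0.241 TPM in parental Panc1, 0.670, 1.30 and 1.24 TPM in Panc1 Holoclone and 0.702, 0.620 and 0.637 TPM in Panc1 Paraclone cells. Panc89 cells had 7.76, 4.45 and 6.91 TPM in the parental, 15.3, 7.27 and 5.32 TPM in the Holoclone and 17.9, 24.6 and 28.5 TPM in the Paraclone libraries. All Panc89 libraries were above all Panc1 libraries, and in Panc89 the Paraclone libraries were highest. Between the lines the log2 fold change was 2.59 ± 0.28 (adjusted p = 7.40e-07) in parental, 2.21 ± 0.28 (adjusted p = 4.27e-06) in Holoclone and 3.88 ± 0.28 (adjusted p = 7.10e-09) in Paraclone cells. Holoclone cells were lower than Paraclone cells in Panc89 (−1.36 ± 0.28, adjusted p = 0.00139), with an adjusted p of 0.0600 in a fit of the 2 groups alone, and the value in Panc1 was 0.31 ± 0.28 (adjusted p = 0.427).

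ITGA10, a collagen receptor known from cartilage, was at 2.79, 3.31 and 2.55 TPM in parental Panc1, 0.825, 1.19 and 0.560 TPM in Panc1 Holoclone and 4.70, 6.47 and 10.2 TPM in Panc1 Paraclone cells. The Panc89 values were 0.176, 0.116 and 0.0621 TPM in parental, 0.227, 0.112 and 0.212 TPM in Holoclone and 0.550, 0.341 and 0.778 TPM in Paraclone cells. The 3 Panc1 groups did not overlap, with Paraclone cells highest and Holoclone cells lowest, and no Panc89 library reached 1 TPM. The change in Panc1 Holoclone against Paraclone cells was −2.09 ± 0.20 (adjusted p = 1.27e-06). In Panc89 it was −0.39 ± 0.20 (adjusted p = 0.158) with a mean TPM 3.03 times lower in Holoclone cells, and it passed the threshold at a pseudocount of 0.1 (−1.18, adjusted p = 0.0170). The difference between the lines was 1.70 ± 0.29 (adjusted p = 0.000300). The log2 fold change between the lines was −1.79 ± 0.20 (adjusted p = 1.29e-06) in parental and −2.34 ± 0.20 (adjusted p = 6.74e-08) in Paraclone cells. ITGA11, a collagen receptor of fibroblasts, reached 1 TPM only in Panc1 Paraclone cells (1.44 to 1.83 TPM, at most 0.132 TPM elsewhere).

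Integrins that recognise the RGD sequence of fibronectin and related ligands include ITGA5 with ITGB1, and ITGAV with ITGB1, ITGB3, ITGB5, ITGB6 or ITGB8. ITGA5, the fibronectin receptor subunit, was at 44.3, 55.2 and 48.6 TPM in parental Panc1, 45.0, 44.6 and 39.8 TPM in Panc1 Holoclone and 269, 203 and 165 TPM in Panc1 Paraclone cells. Parental Panc89 cells had 43.0, 53.0 and 42.4 TPM, Panc89 Holoclone cells 40.2, 32.7 and 36.9 TPM and Panc89 Paraclone cells 134, 85.7 and 123 TPM. In each line every Paraclone library was above every parental and Holoclone library. Holoclone cells had lower expression of ITGA5 than Paraclone cells, with a log2 fold change of −2.25 ± 0.18 (adjusted p = 1.58e-07) in Panc1 and −1.59 ± 0.18 (adjusted p = 6.57e-06) in Panc89. The difference of these changes was 0.65 ± 0.26 (adjusted p = 0.0601) (95% interval 0.11 to 1.20), and it passed the threshold when the libraries were rescaled by upper quartile (0.79, adjusted p = 0.0261) or median of ratios, without Panc1 Paraclone replicate 3 (0.82) and without Panc89 Paraclone replicate 1 (0.78).

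ITGAV was at 127, 102 and 126 TPM in parental Panc1, 102, 104 and 98.6 TPM in Panc1 Holoclone and 175, 174 and 154 TPM in Panc1 Paraclone cells. In Panc89 it was at 30.9, 24.3 and 29.5 TPM in parental, 29.8, 21.5 and 22.8 TPM in Holoclone and 22.6, 27.7 and 22.1 TPM in Paraclone cells. No library of one line reached the range of the other, and within Panc1 the Paraclone libraries were highest. Panc89 differed from Panc1 with a log2 fold change of −2.03 ± 0.14 (adjusted p = 2.69e-09) in parental, −2.01 ± 0.14 (adjusted p = 3.03e-09) in Holoclone and −2.75 ± 0.14 (adjusted p = 7.12e-11) in Paraclone cells. The clone change in Panc1 was −0.72 ± 0.14 (adjusted p = 0.000696) and differed from that in Panc89 by 0.74 ± 0.19 (adjusted p = 0.00739).

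The beta partners of ITGAV split between the lines. ITGB3, known from platelets, vessels and invasive tumor cells, was at 10.5, 6.99 and 10.1 TPM in parental Panc1, 10.5, 12.2 and 10.1 TPM in Panc1 Holoclone and 4.94, 7.39 and 11.9 TPM in Panc1 Paraclone cells, and at 0.0136 to 0.213 TPM over the 9 Panc89 libraries. The Panc1 groups overlapped each other, and no Panc89 library came near them. Between the lines the log2 fold change was −3.21 ± 0.21 (adjusted p = 2.54e-09) in parental, −3.53 ± 0.21 (adjusted p = 7.89e-10) in Holoclone and −2.94 ± 0.21 (adjusted p = 8.01e-09) in Paraclone cells, and neither clone change passed the threshold with all libraries. In Panc1 it did so without Paraclone replicate 3 (0.75, adjusted p = 0.00543, against 0.46 ± 0.21, adjusted p = 0.105 with it).

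ITGB5, a vitronectin receptor subunit, was at 326, 293 and 350.0 TPM in parental Panc1, 348, 413 and 324 TPM in Panc1 Holoclone and 176, 169 and 171 TPM in Panc1 Paraclone cells. Panc89 cells had 37.7, 61.8 and 36.4 TPM in the parental, 38.5, 44.5 and 36.9 TPM in the Holoclone and 104, 80.3 and 107 TPM in the Paraclone libraries. Paraclone libraries were thus below parental and Holoclone libraries in Panc1 and above them in Panc89. The clone change was 1.06 ± 0.17 (adjusted p = 0.000193) in Panc1 and −1.25 ± 0.17 (adjusted p = 4.40e-05) in Panc89, a difference of −2.31 ± 0.24 (adjusted p = 3.38e-06). The log2 fold change between the lines was −2.85 ± 0.17 (adjusted p = 8.16e-10) in parental, −3.14 ± 0.17 (adjusted p = 2.33e-10) in Holoclone and −0.84 ± 0.17 (adjusted p = 0.000591) in Paraclone cells.

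ITGB6 and ITGB8 pair with ITGAV into receptors that bind latent TGF-beta, and ITGB6 is an epithelial subunit. ITGB6 was at 0.0268 to 0.140 TPM over the 9 Panc1 libraries. The Panc89 values were 21.2, 21.9 and 21.7 TPM in parental, 12.0, 5.69 and 4.09 TPM in Holoclone and 20.1, 31.3 and 26.8 TPM in Paraclone cells. The Holoclone libraries were below those of both other Panc89 groups. Panc89 differed from Panc1 with a log2 fold change of 4.42 ± 0.25 (adjusted p = 2.88e-10) in parental, 2.86 ± 0.25 (adjusted p = 5.04e-08) in Holoclone and 4.60 ± 0.25 (adjusted p = 1.81e-10) in Paraclone cells. Holoclone cells were lower than Paraclone cells in Panc89 (−1.81 ± 0.25, adjusted p = 3.84e-05), and the change differed from that in Panc1 by −1.74 ± 0.35 (adjusted p = 0.00116).

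ITGB8 was at 1.72, 2.20 and 1.91 TPM in parental Panc1, 0.361, 0.953 and 0.605 TPM in Panc1 Holoclone and 1.09, 1.17 and 1.67 TPM in Panc1 Paraclone cells. Parental Panc89 cells had 10.5, 5.89 and 11.8 TPM, Panc89 Holoclone cells 2.70, 2.76 and 2.39 TPM and Panc89 Paraclone cells 11.2, 13.7 and 11.2 TPM. In both lines the Holoclone libraries were lowest. The clone change was −1.84 ± 0.20 (adjusted p = 4.83e-06) in Panc89 and −0.50 ± 0.20 (adjusted p = 0.0658) in Panc1, where it passed the threshold under either rescaling, without Panc1 Holoclone replicate 2 and at a pseudocount of 0.1 (−0.99, adjusted p = 0.0150), and the difference was −1.34 ± 0.29 (adjusted p = 0.00197). Between the lines the log2 fold change was 1.78 ± 0.20 (adjusted p = 1.43e-06) in parental, 1.16 ± 0.20 (adjusted p = 0.000122) in Holoclone and 2.50 ± 0.20 (adjusted p = 3.08e-08) in Paraclone cells. The antisense gene ITGB8-AS1 was at 5.77 to 17.1 TPM in Panc89 and at most 0.874 TPM in Panc1, and whether the counting used strand is not given in the sources used here, so reads of the 2 genes may not have been told apart.

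**Figure D5:**
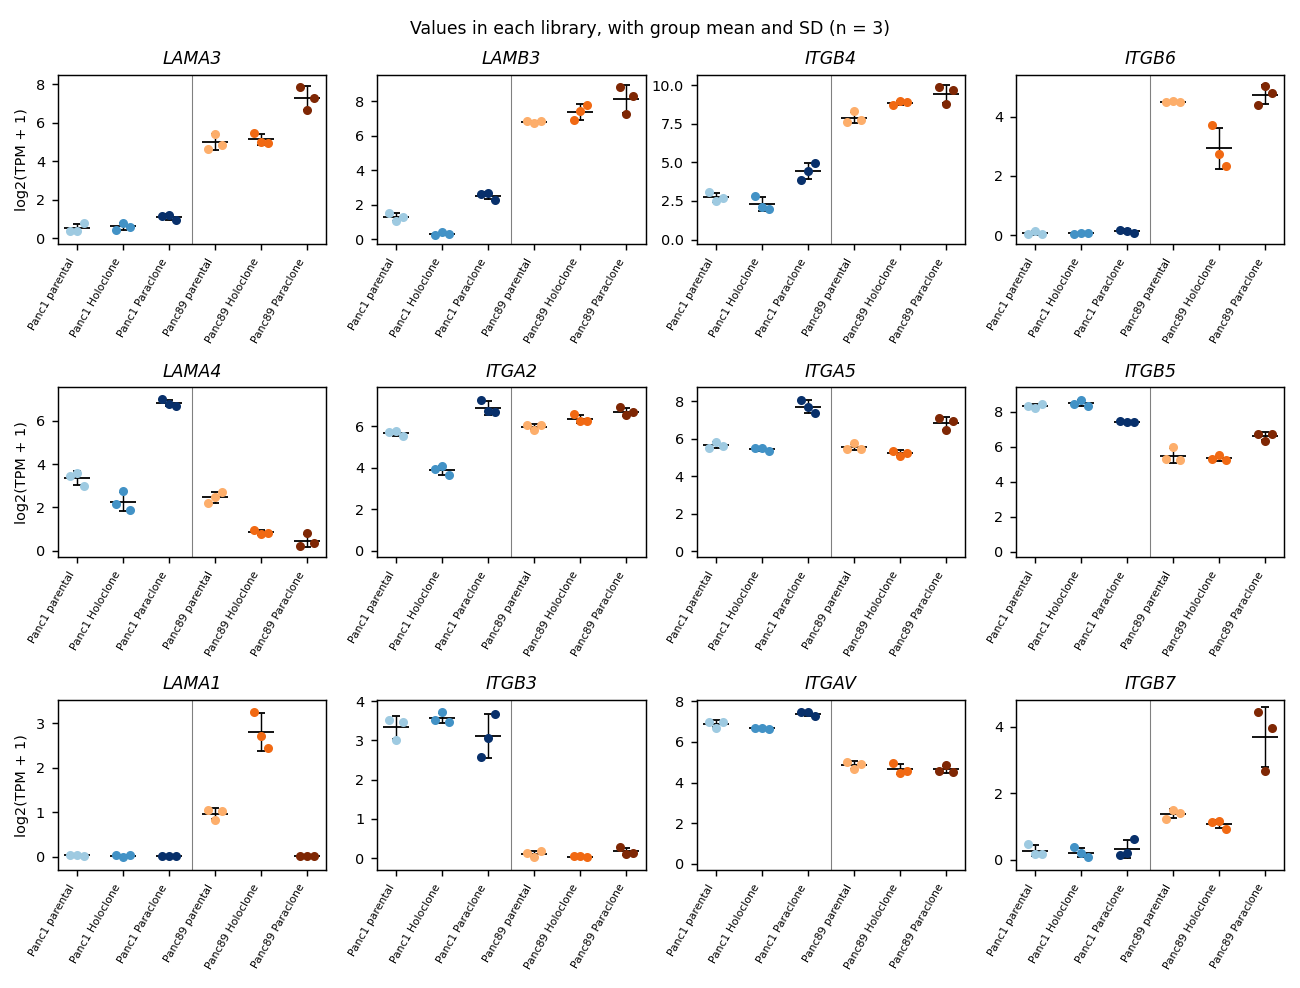
Log2(TPM + 1) (y axis) of 12 genes in each library of the 6 groups (x axis), with points for the 3 libraries and bars for the group mean and SD. LAMA3, LAMB3, ITGB4 and ITGB6 separate Panc89 from Panc1, ITGB3 and ITGAV do so in the other direction, LAMA4 is highest in Panc1 Paraclone cells, LAMA1 is highest in Panc89 Holoclone cells, and 1 Panc89 Paraclone library lies below its 2 partners for ITGB7.

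The last integrins belong to families best known from leukocytes. ITGB2 pairs with leukocyte alpha subunits, and it was at 6.77, 6.73 and 7.19 TPM in parental Panc1, 4.42, 3.97 and 3.97 TPM in Panc1 Holoclone and 7.63, 10.9 and 12.3 TPM in Panc1 Paraclone cells. In Panc89 it was at 19.5, 11.1 and 16.1 TPM in parental, 3.41, 7.78 and 7.15 TPM in Holoclone and 46.3, 17.2 and 45.0 TPM in Paraclone cells. In both lines every Holoclone library was below every Paraclone library. The change was −1.12 ± 0.33 (adjusted p = 0.0148) in Panc1, lost without Panc1 Paraclone replicate 3 (−0.98, adjusted p = 0.0598), and −2.32 ± 0.33 (adjusted p = 5.81e-05) in Panc89, where it was −2.78 without Paraclone replicate 2. The difference of the changes was −1.21 ± 0.47 (adjusted p = 0.0573) with all libraries and −1.66 (adjusted p = 0.00237) without Panc89 Paraclone replicate 2. The partners ITGAL, ITGAM and ITGAX were at most 1.81 TPM in any library, and the leukocyte markers PTPRC and CD3E were at most 0.956 and 0.0361 TPM. The whole leukocyte list, of which 3 of 7 genes reached 1 TPM anywhere, summed to 54.0 to 153 TPM in Panc1 and 9.92 to 63.4 TPM in Panc89, most of it CD68, at 8.31 to 151 TPM. For ITGB2, the log2 fold change of Panc89 against Panc1 was 1.62 ± 0.33 (adjusted p = 0.000535) in Paraclone cells (2.07 without Panc89 Paraclone replicate 2) and 1.04 ± 0.33 (adjusted p = 0.0120) in parental cells, the latter lost without Panc89 parental replicate 1 (0.87, adjusted p = 0.0556). ITGB2-AS1, an antisense gene, reached 5.56 TPM in Panc89 Paraclone cells.

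ITGB7, which pairs with ITGA4 or ITGAE in lymphocytes, was at 0.404, 0.129 and 0.134 TPM in parental Panc1, 0.302, 0.144 and 0.0629 TPM in Panc1 Holoclone and 0.112, 0.146 and 0.551 TPM in Panc1 Paraclone cells. Panc89 cells had 1.37, 1.85 and 1.65 TPM in the parental, 1.20, 1.23 and 0.896 TPM in the Holoclone and 20.7, 5.36 and 14.6 TPM in the Paraclone libraries. The Panc89 Paraclone libraries were above every other library, and replicate 2 was the lowest of them. Panc89 Holoclone cells had a mean TPM 12.2 times lower than Paraclone cells (−2.62 ± 0.31, adjusted p = 9.60e-06), and the difference from Panc1 was −2.51 ± 0.44 (adjusted p = 0.000384). Without replicate 2 these values were −3.13 and −3.02. Panc89 differed from Panc1 with a log2 fold change of 1.10 ± 0.31 (adjusted p = 0.00535) in parental and 3.36 ± 0.31 (adjusted p = 1.29e-07) in Paraclone cells, the latter 3.87 without replicate 2. In Holoclone cells it was 0.85 ± 0.31 (adjusted p = 0.0241), a call lost when any of 4 libraries was left out (adjusted p up to 0.0699, without Panc1 Holoclone replicate 3). Its partner ITGA4 was near 0, as given above, and ITGAE, the alpha subunit that binds E-cadherin, was at 23.2 to 48.6 TPM in Panc1 and 11.5 to 35.5 TPM in Panc89. ITGAE was lower in parental Panc89 than in parental Panc1 cells (−1.44 ± 0.26, adjusted p = 0.000153). Its clone change in Panc89 was 0.14 ± 0.26 (adjusted p = 0.736), and without Paraclone replicate 2, which held its highest Panc89 value, it was 0.53 (adjusted p = 0.0367).

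Each clone was also set against the parental cells of its line. These comparisons share the parental libraries within a line, and their values are given side by side. In Panc1 Holoclone cells, 6 of the 28 genes were called (1 higher and 5 lower), beside 10.9% of all genes (5.87% higher and 5.06% lower). In Panc1 Paraclone cells 16 were called (13 higher and 3 lower), beside 28.6% of all genes (7.31% higher and 21.3% lower). In Panc89, 10 genes were called in Holoclone cells (6 higher and 4 lower, or 4 higher and 5 lower under either rescaling), beside 24.7% of all genes (16.1% higher and 8.61% lower). Of the 6 higher calls, ITGB1 was lost under 10 of 12 alternatives (adjusted p up to 0.306) and ITGB4 under 8 of 12 (up to 0.128). In Panc89 Paraclone cells 13 were called (11 higher and 2 lower), beside 19.4% of all genes (9.37% higher). The median log2 fold changes of the 28 genes were −0.16 and 0.50 for Panc1 Holoclone and Paraclone cells and 0.054 and 0.43 for those of Panc89, beside 0.014, −0.17, 0.080 and −0.020 for all genes.

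On the log2(TPM + 1) scale the largest rises of Panc1 Paraclone cells over parental cells were in LAMA4 (3.47 ± 0.23, adjusted p = 2.09e-08), LAMB1 (2.09 ± 0.11, adjusted p = 2.51e-09), ITGA5 (2.06 ± 0.18, adjusted p = 5.83e-07) and ITGB4 (1.68 ± 0.31, adjusted p = 0.000939), and the falls were in LAMC3 (−1.67), ITGA7 (−0.98) and ITGB5 (−0.90). In Panc1 Holoclone cells the call with the largest change on this scale was ITGA2 (−1.79 ± 0.17, adjusted p = 3.87e-06), and the gene called higher was LAMB1 (0.74 ± 0.11, adjusted p = 0.000470). At a pseudocount of 0.1 the low gene LAMB3 was called with a larger fall there (−2.15, adjusted p = 0.000473, against −0.96 ± 0.30, adjusted p = 0.0524 in the fit with 1), and ITGA1 was called higher (1.92, adjusted p = 0.00203, against 0.77 ± 0.28, adjusted p = 0.0993). Both also passed the threshold in a fit of the 2 groups alone (adjusted p = 0.0147 and 0.0317). At that pseudocount ITGA1 (1.33) and LAMA3 (1.27) were called higher in Panc1 Paraclone cells too, and in Panc89 Paraclone cells ITGA10 was called higher (1.57) and LAMC3 lower (−2.32). In Panc89 Paraclone cells ITGB7 (2.30 ± 0.31, adjusted p = 8.46e-05) and LAMA3 (2.29 ± 0.27, adjusted p = 2.38e-05) rose most on the log2(TPM + 1) scale (2.81 and 2.60 without replicate 2), and LAMA4 (−2.01 ± 0.23, adjusted p = 1.76e-05) and LAMA1 (−0.96 ± 0.16, adjusted p = 0.000476) fell. In Panc89 Holoclone cells LAMA1 rose (1.83 ± 0.16, adjusted p = 7.31e-07), as did ITGA6 (1.20 ± 0.14, adjusted p = 1.43e-05), and LAMA4 (−1.63 ± 0.23, adjusted p = 7.87e-05), ITGB6 (−1.57 ± 0.25, adjusted p = 0.000226), ITGB8 (−1.48 ± 0.20, adjusted p = 7.04e-05) and ITGB2 (−1.25 ± 0.33, adjusted p = 0.0116) fell. The ITGB2 call was lost without parental replicate 1 (−1.08, adjusted p = 0.0569), without Holoclone replicate 1 (−0.94, adjusted p = 0.0510) and in a fit of the 2 groups alone (adjusted p = 0.0527). LAMA4 thus differed from parental cells in both clones of Panc89 and in both clones of Panc1, in Panc1 Holoclone cells at −1.10 ± 0.23 (adjusted p = 0.00471), a call lost in a fit of the 2 groups alone (adjusted p = 0.0862). The 2 tested of 3 endothelial markers, PECAM1 and CDH5, were lower than in parental cells in the same clones of Panc89 (median −3.39 in Holoclone and −2.21 in Paraclone cells). They were also lower in Panc89 Holoclone than Paraclone cells (median −1.18), and the 3 markers summed to at most 0.273 TPM in Panc1. Each median is over 2 genes, and whether these markers are related to LAMA4 was not tested. Summed over all 32 genes, the means were 1923 ± 143, 1865 ± 68.3 and 2973 ± 70.7 TPM (SD, n = 3) in parental, Holoclone and Paraclone Panc1 cells, and 1654 ± 115, 2165 ± 49.8 and 3181 ± 768 TPM in those of Panc89. In each line all Paraclone libraries were above all parental and Holoclone libraries, and the wide Panc89 Paraclone spread came with replicate 2, the lowest at 2363 TPM.

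Other genes of the pathway were counted over lists. Among 27 tested of 29 genes for integrin activation and focal adhesions, which link integrin tails to actin, 4 were higher and 16 lower in parental Panc89 than in parental Panc1 cells (median −1.01), or 74.1% called beside 66.0% of all genes (27.5% higher and 38.5% lower). TNS4, a tensin of epithelial cells that binds beta integrin tails, was at 201, 143 and 267 TPM on average in parental, Holoclone and Paraclone Panc89 cells and at most 0.331 TPM in a Panc1 group (7.61 ± 0.19, adjusted p = 2.02e-14 in parental cells). The other tensins TNS2 (−3.29) and TNS3 (−2.80) were lower in parental Panc89 cells, as were VCL (−2.56), the vinculin of focal adhesions, ILK (−2.44), a kinase-like linker of beta integrin tails, and its partner LIMS1 (−2.70). ACTN4 (−2.40), an actinin that bundles actin, and TGFB1I1 (−3.02), the paxillin relative Hic-5, were lower there too, and PTK2B (2.26), a kinase related to focal adhesion kinase, was higher. The kindlins, which activate integrins, split by type. FERMT1, the epithelial kindlin, was lower in Panc89 Holoclone (19.0 TPM) than Paraclone cells (93.7 TPM, −2.13 ± 0.25, adjusted p = 8.30e-06), whereas FERMT3, known from blood cells, was higher (39.0 against 1.55 TPM, 3.91 ± 0.29, adjusted p = 7.55e-08). FERMT2, the kindlin of most other cells, was lower in Panc89 than in Panc1 Holoclone cells (−2.38 ± 0.28, adjusted p = 2.06e-06), and KANK2, a talin-binding protein at the rim of focal adhesions, was lower in Panc89 Holoclone than Paraclone cells (−2.02 ± 0.26, adjusted p = 2.12e-05). On this list 9 genes were higher and 5 lower in Panc1 Holoclone than Paraclone cells (median 0.27), beside 27.4% higher and 9.97% lower of all genes, and 7 higher and 11 lower in Panc89 (median −0.22), beside 22.4% and 13.3%.

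Of 6 hemidesmosome and tetraspanin partners, COL17A1, the transmembrane collagen that binds ITGB4 in hemidesmosomes, was at 62.4, 165 and 43.6 TPM on average in parental, Holoclone and Paraclone Panc89 cells, and at most 0.665 TPM in a Panc1 group (7.29 ± 0.16, adjusted p = 4.66e-15 in Holoclone cells). Over the 6, 1 was higher and 3 lower in parental Panc89 than in parental Panc1 cells (median −0.52), beside 27.5% and 38.5% of all genes. Between the Holoclone cells of the lines 3 were higher and 3 lower (median 0.17), beside 29.3% and 36.4%. Between the Paraclone cells it was also 3 and 3 (median −0.45), beside 30.2% and 30.4%. In Panc1 none of the 6 was higher and 5 were lower in Holoclone than in Paraclone cells (median −0.62), beside 27.4% higher and 9.97% lower of all genes, and in Panc89 2 were higher and 1 lower (median −0.0091), beside 22.4% and 13.3%. CD151, a tetraspanin partner of laminin-binding integrins, was lower in parental Panc89 than in parental Panc1 cells (−2.27 ± 0.11, adjusted p = 4.99e-11), and DST, which encodes a plaque protein of hemidesmosomes among its isoforms, was lower in Panc89 than in Panc1 Paraclone cells (−2.29 ± 0.29, adjusted p = 4.61e-06).

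Of 12 other basement membrane genes, 10 were tested, and in Panc1 none was higher and 8 were lower in Holoclone than in Paraclone cells (median −1.68), where 37.3% of all genes were called (27.4% higher and 9.97% lower). Among them were COL4A2 (0.555 against 22.9 TPM, −3.95 ± 0.20, adjusted p = 4.86e-10) and COL4A5 (−2.89 ± 0.12, adjusted p = 1.08e-10), chains of the collagen that nets laminin sheets together, and HSPG2 (−2.99 ± 0.19, adjusted p = 1.28e-08), the proteoglycan perlecan. In Panc89, 3 were higher and 3 lower (median 0.31), where 35.7% of all genes were called (22.4% higher and 13.3% lower), with COL4A6 higher (2.85 ± 0.23, adjusted p = 1.89e-07) and NID2, a relative of the laminin linker nidogen, lower (−2.52 ± 0.25, adjusted p = 1.44e-06) in Holoclone cells. COL18A1 was lower in Panc89 than in Panc1 in all 3 cell variants (−4.05, −5.55 and −6.16). In the other direction, COL4A1 was higher in parental Panc89 than in parental Panc1 cells (3.76) and AGRN, the proteoglycan agrin, in Panc89 than in Panc1 Holoclone cells (2.07), while the laminin linker NID1 was lower in Panc89 than in Panc1 Paraclone cells (−2.07). Of 3 laminin receptors that are no integrins, 1 was higher and none lower in parental Panc89 than in parental Panc1 cells (median 0.61), beside 66.0% of all genes called. Between the Holoclone cells of the lines 2 were higher and 1 lower (median 1.48), beside 65.8% called. Between the Paraclone cells 1 was higher and 1 lower (median −0.029), beside 60.7% called. Of 13 ligands read by RGD-binding and other integrins, 9 were tested, and in Panc1 Holoclone against Paraclone cells 2 were higher and 4 lower (median −0.47), beside 27.4% and 9.97% of all genes, led by MFGE8 (955 against 81.8 TPM, 3.56 ± 0.18, adjusted p = 8.04e-10) and TNC, tenascin C (0.275 against 27.8 TPM, −4.50 ± 0.37, adjusted p = 2.11e-07). The matrix protein THBS1 was lower as well (−2.54 ± 0.45, adjusted p = 0.000382). In Panc89, 3 were higher and 3 lower (median −0.51), beside 22.4% and 13.3% of all genes, and FN1, the fibronectin that ITGA5 binds, was lower in Holoclone (1.20 TPM) than in Paraclone cells (13.6 TPM, −2.56 ± 0.30, adjusted p = 9.24e-06). Between the lines, 6 ligands were higher and 3 lower in parental Panc89 than in parental Panc1 cells, beside 27.5% and 38.5% of all genes. MFGE8 was lower in Panc89 in all 3 cell variants (−6.30, −5.68 and −3.82), at 7.97 against 699 TPM in parental cells. SPP1, osteopontin, was higher in parental (3.32 ± 0.43, adjusted p = 5.65e-06), TNC in Holoclone (3.78) and FN1 in Paraclone cells of Panc89 (3.27).

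Among markers of other cell types beside CD68, the endothelial PECAM1 reached 64.7 TPM and CDH5 5.07 TPM in Panc89 cells. The 3 endothelial markers, of which 2 reached 1 TPM anywhere, summed to 1.01 to 69.1 TPM in Panc89, and VWF was at most 0.355 TPM in any library. The fibroblast list (DCN, LUM and PDGFRB) summed to at most 1.22 TPM in any library. The libraries came from cultures of PDAC cell lines, and each Holoclone or Paraclone group grew from a single cell. What these markers mean for the values of LAMA4, ITGB2 or ITGB7 was not tested. In bulk libraries, fewer cells with a transcript and less RNA per cell cannot be told apart.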

How the data were processed

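RNA from 3 passages of each of the 6 cell variants was sequenced after a stranded mRNA preparation. The authors mapped the reads to the Ensembl GRCh38 transcriptome with kallisto 0.46.1 and summed scaled TPM per gene with tximport. Values were deposited as log2(TPM + 1), which summed to 985339 to 988066 TPM per library after back-transformation, so that neither counts nor depth are known and no counting error can be given.

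Libraries were grouped by their labels. The 16093 genes that reached 1 TPM in 3 or more libraries were fitted with limma 3.58.1 (lmFit and eBayes with an intensity trend, R 4.3.3) as means of 6 groups on log2(TPM + 1), with Benjamini-Hochberg adjustment over all of them and a threshold of 0.05. The fit was tested on simulated data. The members and gene lists were chosen with earlier results of these data known. In full, 18 members were described: those with an absolute log2 fold change of at least 2 and an adjusted p under the threshold in any line or clone comparison or in the difference between lines. List genes were named by the same limit where the higher group averaged 10 TPM or more. Alternatives were a pseudocount of 0.1, no filter, a fit of the compared groups alone, a replicate block, upper quartile and median-of-ratios scaling, and each library left out. Promoters were read from RefSeq and gene positions from GENCODE 44, both on GRCh38.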

Additional observations from a re-analysis of the deposited data

Results flagged for a closer look

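The change from Paraclone to Holoclone cells differed between the lines for 21 of the 28 genes tested (the change in Panc89 minus that in Panc1, log2 scale, limma, adjusted over all genes), beside 35.1% of all genes in the same test. Of the laminin chains, this change was higher in Panc89 than in Panc1 for LAMA4 (4.95), LAMA1 (2.79), LAMB1 (1.65), LAMB3 (1.47), LAMC1 (0.83) and LAMA2 (0.58), and lower for LAMA3 (−1.63) and LAMC3 (−0.94). Of the alpha integrins, it was higher in Panc89 for ITGA2 (2.67), ITGA10 (1.70), ITGA3 (1.59), ITGA6 (1.53), ITGA11 (1.34) and ITGAV (0.74), and lower for ITGA1 (−1.67) and ITGA7 (−0.84). The LAMA2 call was lost under 9 of 18 alternatives (adjusted p up to 0.0758), the ITGA7 call under 4 (up to 0.0731), the LAMC3 call or its direction under 6 and the LAMA3 call under 1. Of the beta integrins, the change was higher in Panc89 for ITGB4 (1.54), and lower for ITGB7 (−2.51), ITGB5 (−2.31), ITGB6 (−1.74) and ITGB8 (−1.34). ITGA11 had passed the filter only through Panc1 Paraclone cells, ITGA10 and LAMC3 only through Panc1, and ITGB6, ITGB7, LAMA1 and LAMA2 only through Panc89 libraries. A difference between lines in these genes was thus built into their selection. For LAMA1, which passed through parental and Holoclone cells of Panc89 alone, a difference between the Panc89 clones was built in too. LAMA4 and ITGA2 differed mainly through the change between the clones of Panc1, and LAMA1 and ITGB7 through that between the clones of Panc89. In parental, Holoclone and Paraclone Panc1 cells LAMA4 averaged 9.38, 3.93 and 113 TPM, and ITGA2 49.9, 13.7 and 120 TPM. ITGB5 and ITGA6 passed the threshold in both lines in opposite directions.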

How the results depend on the processing

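Of 163 calls of integrin and laminin genes over the 10 comparisons, 137 held under every alternative run for them, and 26 were lost or reversed under at least 1. The number of these genes called stayed within 1.5 times in every comparison. With 1 library left out it was 21 to 23 between parental, 21 to 23 between Holoclone and 19 to 21 between Paraclone cells of the lines, 18 to 19 for the clones of Panc1, 11 to 16 for those of Panc89 and 18 to 24 for their difference. Against parental cells it was 4 to 5 and 15 to 16 for Panc1 Holoclone and Paraclone cells, and 7 to 10 and 12 to 15 for those of Panc89. Over all genes, the clones of Panc89 gave 5746 calls, and 3377 in a fit of the 2 groups alone, and the cause was not tested. Panc1 Holoclone against parental cells gave 1759, and 1061 to 1571 with 1 library left out, lowest without Panc1 Holoclone replicate 3. The change reversed for LAMC3 in the difference between lines at a pseudocount of 0.1 (0.055), and for ITGAE between the clones of Panc89 without Paraclone replicate 1 (−0.068) or 3 (−0.053), against 0.14 with all libraries and 0.53 without replicate 2.

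The pseudocount of 0.1 widened values of genes near 0, such as ITGB6 (7.18 against 4.42) and ITGB3 (−5.68 against −3.21) between parental cells. Scaling by upper quartile or median of ratios moved the median over all genes from −0.18 to −0.044 or 0.019 between parental cells, and the share of higher calls from 41.6% to 48.3% or 51.8%. For Panc1 Paraclone against parental cells that share went from 25.6% to 47.4% or 53.0%, and for Panc89 Holoclone against parental cells from 65.2% to 51.3% or 51.0%. Replicate numbers did not pair the libraries. The deviations of same-numbered libraries from their group means correlated at −0.318 to 0.190, over 0.1 in 3 of 18 pairs, and 2 of 18 libraries correlated best with their own number. With a replicate block within each line the counts in the order above were 22, 23, 21, 18, 13, 20, 5, 16, 8 and 12. Depth limits are unknown, since the files hold no counts.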
